A study of Mus musculus with 6 samples.

Results

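The small leucine-rich proteoglycans are secreted proteins of the extracellular matrix, and 9 genes of this family and its kin were followed by name through the exonic and intronic read tables of mouse mesenchymal cells. The genes were Dcn, Bgn, Lum, Fmod, Prelp, Ogn, Omd, Aspn and Islr, and all 9 were found among the 23227 genes of the exonic tables and the 23231 genes of the intronic tables. Total RNA depleted of ribosomal RNA had been sequenced from immortalized mouse mesenchymal stem cell lines, each grown from 1 cell, which the labels also name fibroblasts. The 6 groups were cells with floxed, intact Dicer (Dicer f/f, here Dicer WT), cells with Dicer deleted (Dicer -/-, here Dicer KO), and Dicer WT cells given the bare vector or one that carried Pbx3, Sox9 or Tead4. Dicer KO was set against Dicer WT, and each of the 3 factors against the bare vector, which therefore served as the control of 3 comparisons. Each genotype is a single clone, so that a difference between the genotypes and a difference between the clones cannot be told apart.

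The core of each of these proteins is a curved stretch of leucine-rich repeats, which in many members binds fibrillar collagen and in several binds growth factors of the TGF-beta and BMP families. Biglycan (Bgn) and decorin (Dcn) carry chondroitin or dermatan sulfate chains, while fibromodulin (Fmod), lumican (Lum) and osteomodulin (Omd) carry keratan sulfate or related chains. Islr encodes Meflin, a membrane-anchored leucine-rich repeat protein that marks undifferentiated mesenchymal stromal cells, and it is grouped here with the secreted members although it is not one of the classical proteoglycans.

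The labels list 1 sample per group, but each deposited group value resolved as the mean of 2 libraries, and the whole reads of both were recovered from it. The 12 libraries held 6130267 to 23501655 exonic reads and 3156973 to 10205497 intronic reads. Levels are given as RPM, the reads of a gene per 1000000 exonic (or intronic) reads of its library. Whether the 2 libraries of a group came from separate cultures is not stated, so that each p value reflects the spread between 2 libraries that may be technical repeats. The libraries of a group differed along an axis that recurred in every group, and they were numbered 1 and 2 along it from 8003 genes other than the members. Of 12 mesenchymal stromal markers, 11 stood at 1 RPM or more in every library and Thy1 was listed at 0 in every library, while all 5 endothelial and all 5 epithelial markers stayed under 1 RPM. Of the blood cell markers, Ptprc, Itgam and Cd3e stayed under 1 RPM and Cd68 stood at 1 RPM or more in all 12 libraries. The transfected gene rose in Pbx3 cells by 7.04 ± 0.21 and in Tead4 cells by 7.17 ± 0.18 on the log2 scale (limma adjusted p = 0.0013 and 0.000284). Sox9 stood at 5.59 and 14.4 RPM in the vector libraries and at 23.3 and 21.6 RPM in the Sox9 libraries (limma adjusted p = 0.272). The log2 change of Dicer1 in Dicer KO was -0.46 ± 0.14 (limma adjusted p = 0.0859), and totals over the gene do not check which part was deleted.

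The family was carried by Ogn and Bgn. Per kilobase of exon and averaged over the 6 groups, Ogn (osteoglycin, also called mimecan) stood at 145 RPM and Bgn at 92.0 RPM. Omd followed at 16.0 RPM per kilobase, Islr at 13.3 and Aspn (asporin) at 4.26. Fmod stood at 2.16 and Prelp at 1.96 RPM per kilobase. Of the members' exonic reads, Ogn and Bgn together held 86.4% in Dicer WT and 99.3% in Dicer KO cells. Their share was 89.1% with the vector alone and 94.2%, 87.5% and 93.2% with Pbx3, Sox9 and Tead4. Levels in Dicer and transfected cells come from tables that were normalised apart, and they are described side by side with no test between those 2 sets.

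Decorin and lumican, which are among the most abundant members of the family in tendon, skin and cornea, were nearly absent. Dcn had 18 exonic reads over all 12 libraries, with at most 3 in any library. It had 0 reads in the Dicer KO libraries, where 3 reads over the group, the limit that a count of 0 allows, correspond to 0.0679 RPM. Lum had 1 exonic read in all, in Dicer KO library 2, and 0 intronic reads. Neither gene reached the minimum mean of 50 normalised counts that was chosen for testing. With no minimum, exonic Dcn passed in Dicer KO, at -2.03 ± 0.49 (limma adjusted p = 0.0496), on 3 reads in each Dicer WT library and 0 in either Dicer KO library, so that the size of this change depends on the pseudocount. The floors and intervals given here cover counting error only.

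**Figure D1:**
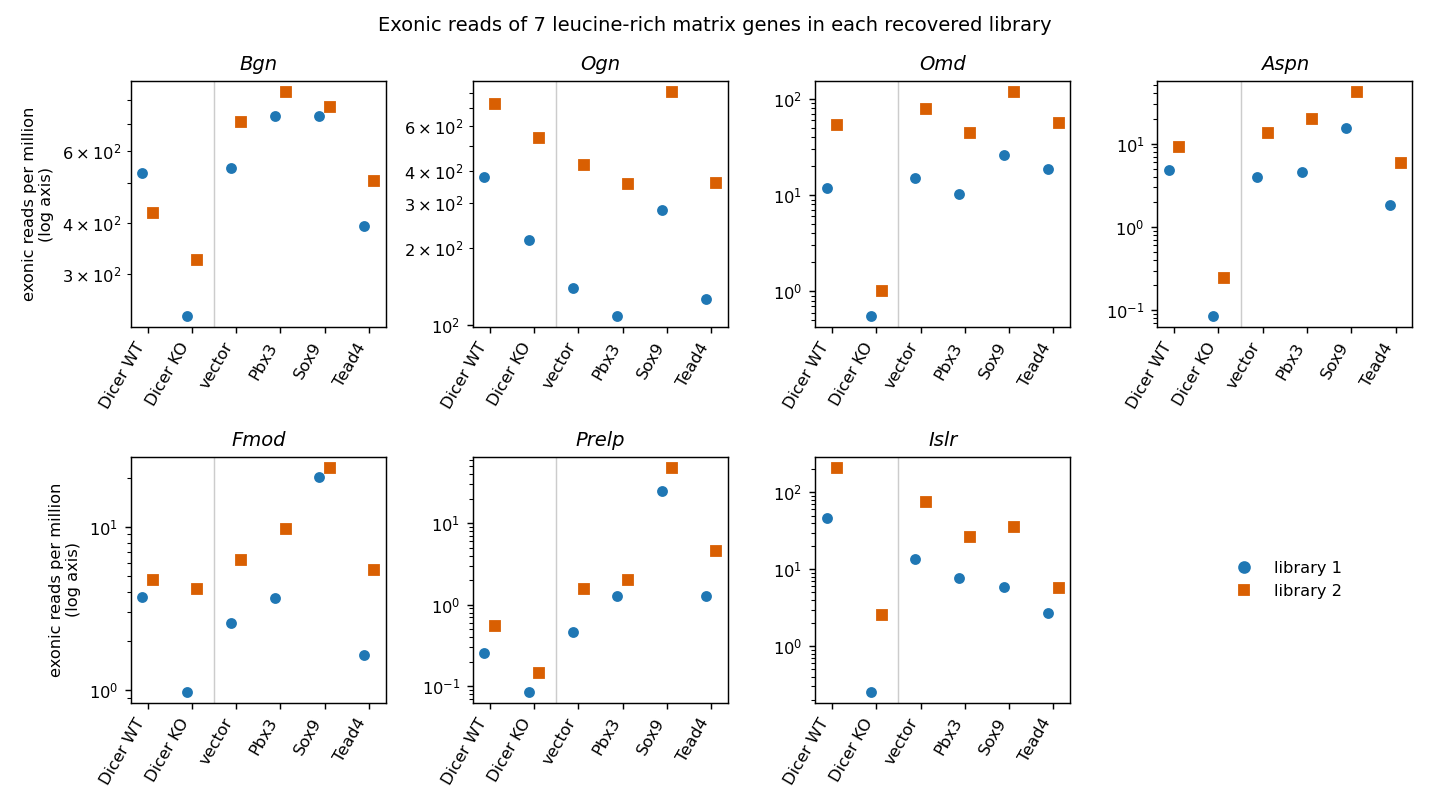
Exonic RPM (vertical log axis, scaled separately for each gene) of 7 members in the 6 groups (horizontal axis), with a circle for library 1 and a square for library 2. Omd, Aspn and Islr are lowest in Dicer KO, at 0.085 to 2.51 RPM, and Prelp is highest in Sox9 cells, at 25.1 and 47.6 RPM.

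Set against Dicer WT cells, Dicer KO cells lack the enzyme that releases mature microRNAs from their precursors, and in them asporin, osteomodulin and Islr fell to at most 0.241, 1.01 and 2.51 RPM. Aspn fell by 5.09 ± 0.63 on the log2 scale, Omd fell by 4.97 ± 0.73 and Islr fell by 6.80 ± 1.15 (limma adjusted p = 0.00975, 0.0153 and 0.0212, 2 libraries against 2). Bgn, Ogn and Fmod were lower without passing the test. In all, 6 of 9 members passed the minimum, 3 fell and 0 rose, where 16.6% of 10706 genes passed limma in either direction and 7.36% fell. The median change of those 6 was -2.99 beside 0.01 over all genes tested. That median and that count describe the members only, since Aspn, Omd and Islr reached the minimum through their Dicer WT libraries alone and so had to differ.

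Aspn, a member without a glycosaminoglycan chain that binds TGF-beta and BMP ligands, stood at 4.87 and 9.13 RPM in Dicer WT libraries 1 and 2 and at 0.0851 and 0.241 RPM in Dicer KO. These levels rest on 113 and 169 reads in Dicer WT and on 2 and 5 reads in Dicer KO, and the groups did not overlap. On the scale of log2(normalised count + 1), which understates the change of genes this low, the fitted difference amounts to 34.1-fold. The log2 change was -5.25 between the libraries numbered 1 and -4.94 between those numbered 2. In the authors' deposited table, its adjusted p was 5.94e-06.

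Omd, a bone matrix member that binds osteoblasts and mineral, stood at 11.8 and 53.5 RPM in Dicer WT and at 0.553 and 1.01 RPM in Dicer KO. The 2 Dicer WT libraries were themselves 2.09 apart on the log2 scale, and both lay above both Dicer KO libraries. The log2 change was -4.33 between the libraries numbered 1 and -5.60 between those numbered 2, and the fitted difference amounts to 31.3-fold. The authors' deposited table gives Omd an adjusted p of 0.128.

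Islr stood at 46.9 and 208 RPM in Dicer WT and at 0.255 and 2.51 RPM in Dicer KO. It had the widest gap of the members, 111-fold on the fitted scale, with 1089 and 3848 reads against 6 and 52. Within library pairs the log2 change was -7.30 and -6.29, and the groups did not overlap. The authors' deposited table gives Islr an adjusted p of 0.058. Its neighbour in the genome is Islr2, a paralog that shares its locus, and how reads shared by paralogs were counted is not given in the sources used here. In bulk RNA, fewer cells that express a gene and less of its RNA per cell cannot be told apart, for Islr as for every member.

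These 3 decreases kept their direction when any single library was left out. Without Dicer KO library 1, the lowest for all 3, the log2 changes were -4.53 for Aspn, -4.56 for Omd and -5.26 for Islr. Without Dicer KO library 2 they were -5.65, -5.37 and -8.33. Without Dicer WT library 1 they were -5.50, -6.01 and -7.83, and without Dicer WT library 2 they were -4.69, -3.92 and -5.77.

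Bgn, the member with the most exonic reads over all 12 libraries, was lower in Dicer KO by a smaller amount. It stood at 530 and 423 RPM in Dicer WT and at 236 and 325 RPM in Dicer KO, so that the groups did not overlap. Its log2 change was -0.76 ± 0.22 (limma adjusted p = 0.0747), with -1.19 within the libraries numbered 1 and -0.33 within those numbered 2. With any single library left out the change ranged from -0.98 to -0.53. Bgn, Omd, Aspn and Islr were the 4 of 6 tested members whose groups did not overlap, beside 63.3% of all genes tested.

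Ogn, which is found in bone and muscle matrix, stood at 380 and 728 RPM in Dicer WT and at 214 and 536 RPM in Dicer KO. The groups overlapped, and the log2 change of -0.62 ± 0.49 did not pass (limma adjusted p = 0.423). Without Dicer KO library 1 its direction turned, to 0.04. Fmod stood at 3.75 and 4.70 RPM in Dicer WT and at 0.979 and 4.15 RPM in Dicer KO, with a change of -1.02 ± 0.69 (limma adjusted p = 0.352). The low value came from Dicer KO library 1 alone, and the change was -1.91 within library 1 and -0.12 within library 2. Prelp, at 16 reads in Dicer WT and 5 in Dicer KO, was under the minimum, and the ratio of its RPM was 0.295 (95% interval 0.0845 to 0.843, counting error only).

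**Figure D2:**
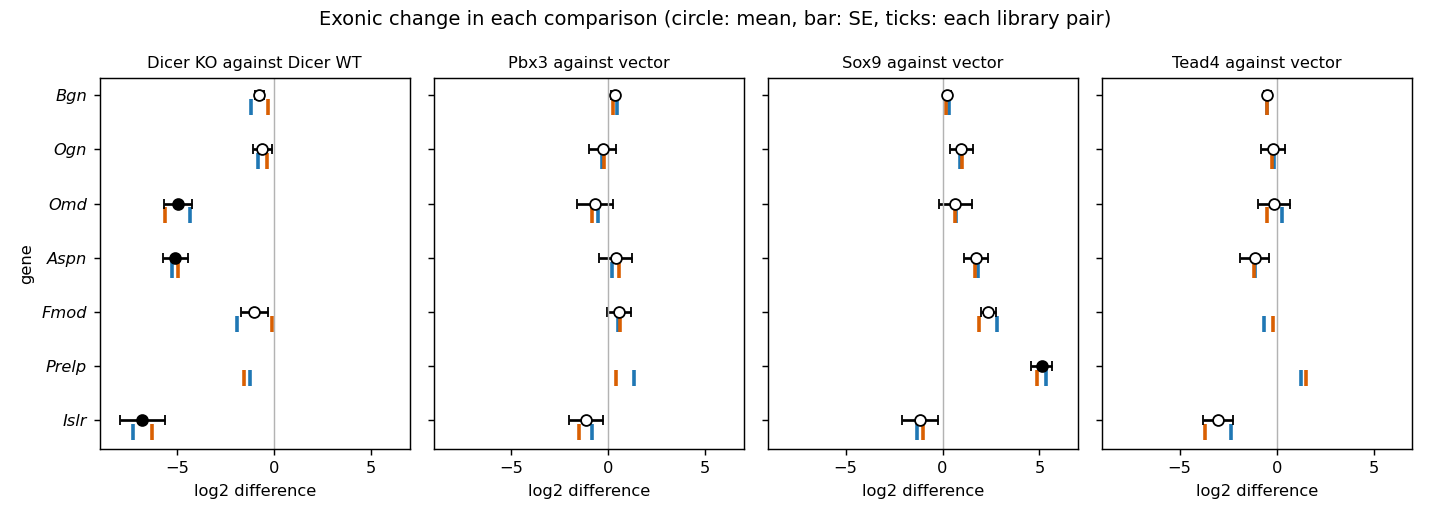
Log2 difference of log2(normalised count + 1) in exonic reads (horizontal axis) for 7 members (vertical axis) in the 4 comparisons. Circles are limma estimates with the standard error as a bar, filled where the adjusted p is under 0.05, ticks are the differences between libraries numbered 1 (blue) and 2 (orange), and members under the minimum have ticks only. Filled circles are Omd, Aspn and Islr in Dicer KO and Prelp in Sox9 cells.

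Aspn, Omd and Ogn are neighbours on mouse chromosome 13, in the order Ecm2, Aspn, Omd, Ogn, and all 3 lie inside the gene Cenpp, which is on the opposite strand. Aspn and Omd fell in Dicer KO and Ogn did not pass the test, and the sequences just before their start sites are shown to compare this row of genes. They are the 250 bases before the RefSeq start site in the build GRCm38.p6, which is not the mm9 build of the authors' alignment, for Aspn at chr13:49544193-49544442 (plus strand), Omd at chr13:49582212-49582461 (plus strand) and Ogn at chr13:49607765-49608014 (plus strand). Capitals mark the letters AACAAT on either strand (read as ATTGTT on the other), a core that SOX proteins bind, and GGAATG on either strand (CATTCC on the other), a core that TEAD proteins bind.
Aspn: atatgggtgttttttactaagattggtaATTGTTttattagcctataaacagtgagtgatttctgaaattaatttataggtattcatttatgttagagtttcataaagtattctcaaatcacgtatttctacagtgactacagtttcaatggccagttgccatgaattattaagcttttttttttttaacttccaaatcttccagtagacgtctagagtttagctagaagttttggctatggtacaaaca
Omd: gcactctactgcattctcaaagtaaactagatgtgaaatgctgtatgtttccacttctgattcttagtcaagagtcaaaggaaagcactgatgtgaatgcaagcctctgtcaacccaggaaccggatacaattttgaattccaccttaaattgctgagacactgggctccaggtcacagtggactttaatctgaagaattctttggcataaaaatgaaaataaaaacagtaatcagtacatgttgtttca
Ogn: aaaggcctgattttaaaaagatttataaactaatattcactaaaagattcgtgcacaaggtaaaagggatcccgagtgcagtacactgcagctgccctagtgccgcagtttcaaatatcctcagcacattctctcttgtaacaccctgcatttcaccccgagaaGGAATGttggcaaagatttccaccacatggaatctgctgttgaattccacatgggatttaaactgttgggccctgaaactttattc

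Of the 9 members, 7 had a promoter entry, and Dcn and Lum had none. AACAAT was present in 9.42% of 32851 RefSeq promoter windows of 250 bases and in 2 of 7 member windows, Prelp and Aspn. GGAATG was present in 12.6% of those windows and in 1 of 7 member windows, Ogn. The Aspn match starts 222 bases before the start site and the Ogn match 86 bases before it. No member window held both cores. The windows also differ in base composition, with 38.4% G and C in Omd and 42.0% in Ogn, against 64.4% in Bgn. Of the 7 member windows, that of Aspn held the least G and C, less than that of Omd. The 9.42% for AACAAT was taken over windows of every composition. How often this core is present in windows as poor in G and C as that of Aspn was not tested. A match is a description of letters, and no binding was measured.

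Intronic reads, which come mostly from RNA that is not yet spliced, reached the minimum mean of 50 in Bgn, Ogn and Omd only. In Dicer KO, 0 of these 3 passed limma and 2 had an unadjusted p under 0.05. Of 10215 genes tested, 6.51% passed limma and 2558 had an unadjusted p under 0.05. Omd had 5.49 and 20.0 intronic RPM in Dicer WT and 1.37 and 1.49 in Dicer KO, a log2 change of -2.82 ± 0.63 (limma adjusted p = 0.0714). With any single library left out this change ranged from -3.70 to -1.93. Aspn went from 81 intronic reads over both Dicer WT libraries to 5 over both Dicer KO libraries, and Islr from 89 to 2, with no overlap between the groups in either. With no minimum the log2 change was -3.58 ± 0.40 for intronic Aspn, which passed (limma adjusted p = 0.0291), and -4.16 ± 1.12 for intronic Islr, which did not (limma adjusted p = 0.148). The authors' deposited table gives the intronic reads of Aspn an adjusted p of 8.92e-06. Omd reached the minimum in intronic reads through its Dicer WT libraries alone.

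The exonic decrease of Omd was larger than its intronic one. The difference of the 2 log2 changes was -2.15 ± 0.25 (limma adjusted p = 0.0149), where 3.34% of 9402 genes passed this test. In Dicer KO, Omd had 13 and 21 exonic reads and 13 and 14 intronic reads. The test did not adjust the variance for the level of a gene. Its standard error therefore makes no allowance for counts this low and may be too small. For Bgn the difference was -0.04 ± 0.12 and for Ogn 0.06 ± 0.14 (limma adjusted p = 0.913 and 0.863), so that their exonic and intronic changes lay within 1 standard error of each other. Exonic and intronic libraries were paired by the shared axis, since the tables do not pair them. In the factor comparisons none of the 3 genes passed this test, with limma adjusted p from 0.403 upwards. An unadjusted p under 0.05 was given there by Ogn in Sox9 cells, at 0.43 ± 0.17.

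**Figure D3:**
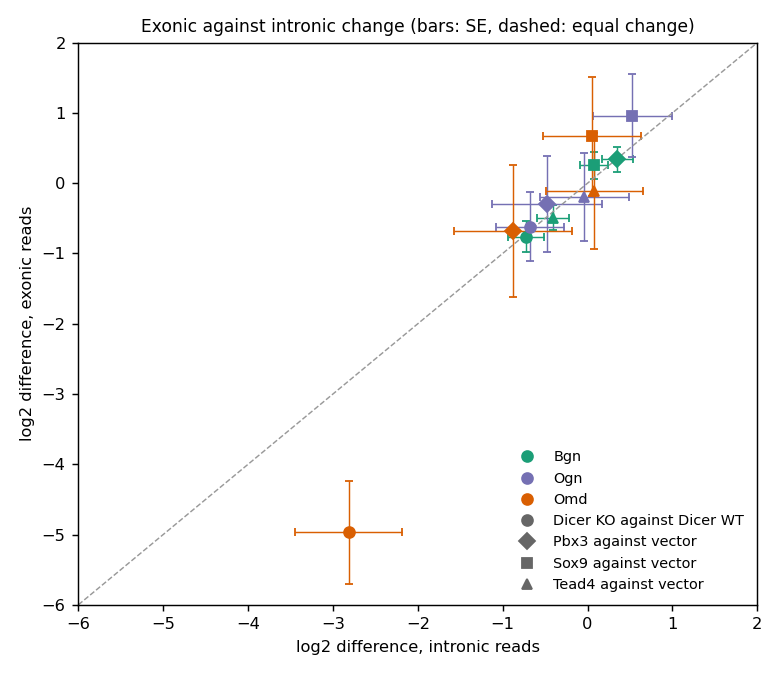
Exonic log2 difference (vertical axis) against intronic log2 difference (horizontal axis) of Bgn, Ogn and Omd in the 4 comparisons, as limma estimates with standard errors as bars. The dashed line marks equal change, and Omd in Dicer KO lies below it, at -4.97 exonic and -2.82 intronic.

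Cenpp, a kinetochore gene, spans these neighbours. Its intronic level was 468 and 558 RPM in Dicer WT and 259 and 272 RPM in Dicer KO, and 377 and 443 RPM in vector against 825 and 863 RPM in Sox9 cells. The authors' deposited tables give its intronic log2 change as -0.975 in Dicer KO (adjusted p = 0.0123) and 1.09 in Sox9 (adjusted p = 0.000214). In exonic reads the authors' deposited tables give Cenpp -0.686 in Dicer KO (adjusted p = 0.103) and 0.431 in Sox9 (adjusted p = 1.0), and neither passed. The libraries were strand-specific, but the use of strand in counting is not given in the sources used here, and without it reads of Cenpp and of the genes inside it cannot be told apart. Ecm2, the leucine-rich matrix gene next to Aspn, fell in exonic reads by 2.79 ± 0.41 (limma adjusted p = 0.015), from 8.70 and 16.6 RPM to 1.36 and 2.08 RPM.

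Over all genes tested in exonic reads of Dicer KO, 16.6% passed limma in either direction and 7.36% fell. The counts of the lists that follow describe their members only. Among the other leucine-rich matrix genes, 3 of 11 were tested in Dicer KO, and 2 fell and 1 rose. Podnl1 (podocan-like 1) fell by 1.79 ± 0.23, from 3294 and 4284 normalised counts to 910 and 1288. Tsku (tsukushi, a secreted inhibitor of BMP signals) rose by 1.35 ± 0.26, from 282 and 184 to 635 and 533. Of the enzymes that build chondroitin and dermatan sulfate chains, 5 of 16 tested fell and 0 rose, with a list median of -0.02. Xylt1, the xylosyltransferase that starts the chain on the core protein, fell by 3.96 ± 0.41, from 123 and 166 normalised counts to 8.25 and 8.26. Dse and Dsel, the epimerases that turn chondroitin into dermatan sulfate, fell by 0.94 ± 0.16 and 0.93 ± 0.16. Of the keratan sulfate enzymes, 1 of 4 tested rose and 0 fell, namely the sulfotransferase Chst1, by 3.27 ± 0.57.

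The collagens that these proteins bind were lower in part. Of 10 fibril and associated collagens tested in Dicer KO, 5 fell and 0 rose, with a list median of -0.72. Over all genes tested, 16.6% passed limma in either direction and 7.36% fell. Col2a1 fell by 4.12 ± 0.41, Col1a1 by 2.31 ± 0.18 and Col6a3 by 1.69 ± 0.13. Of the proteases that cut leucine-rich proteoglycans or procollagen, 2 of 8 fell and 0 rose. These were Mmp2, a gelatinase, which fell by 5.10 ± 0.22 (from 1656 and 1455 normalised counts to 38.5 and 50.6), and Adamts5, an aggrecanase, which fell by 1.90 ± 0.36. Of the receptors and growth factors known to bind family members, 2 of 12 fell and 1 rose. Met, a receptor that decorin binds, rose by 2.67 ± 0.13, while Bmp4 fell by 1.15 ± 0.18 and Tgfb2 by 0.78 ± 0.13. All these changes passed limma with adjusted p under 0.05. Ecm2, Xylt1, Col2a1 and Mmp2 reached the minimum through their Dicer WT libraries alone, and Chst1 through its Dicer KO libraries alone, and so had to differ.

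Only part of the osteoblast markers fell in the same comparison as the bone matrix member Omd. Of 6 tested, 3 fell, 0 rose and 3 did not pass. Pth1r, the parathyroid hormone receptor, fell by 5.66 ± 0.39. Sp7, the osteoblast transcription factor osterix, fell by 5.38 ± 0.73, and Runx2 fell by 0.85 ± 0.19. Pth1r and Sp7 reached the minimum through their Dicer WT libraries alone and so had to differ. Beside these marker counts, 16.6% of all genes tested passed limma in either direction and 7.36% fell. The summed level of all 8 osteoblast markers was 1419 and 2796 RPM in the Dicer WT libraries and 1200 and 3904 RPM in Dicer KO, and so overlapped. Of 11 mesenchymal stromal markers tested, 2 fell and 1 rose, namely Ly6a and Twist1, with log2 changes of -1.17 ± 0.26 and -1.06 ± 0.24, and Twist2, which rose by 1.47 ± 0.28. Of 3 adipocyte markers, Fabp4 fell by 4.56 ± 0.16 and the other two did not pass. The part of these markers in the change of Omd, Aspn and Islr was not tested.

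In Sox9 cells set against vector cells, Prelp rose, and fibromodulin and asporin were higher without passing the test. Prelp, whose basic tail binds heparin and which is found in cartilage and basement membranes, rose by 5.12 ± 0.55 (limma adjusted p = 0.0101, 2 libraries against 2). Of the 7 members that passed the minimum, 1 rose and 0 fell, where 0.547% of 9698 genes passed limma and 0.454% rose. The median of the 7 was 0.96 beside -0.02 over all genes tested. Prelp and Fmod reached the minimum through their Sox9 libraries alone and so had to differ, and the count and the median describe the members only. Bgn, Fmod, Prelp and Aspn were the 4 of 7 whose groups did not overlap, beside 45.3% of all genes tested.

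Prelp stood at 0.466 and 1.54 RPM in vector libraries 1 and 2 and at 25.1 and 47.6 RPM in the Sox9 libraries. These are 4 and 17 reads against 154 and 370, and the ratio of RPM was 35.2 (95% interval 22.8 to 57.3, counting error only). The log2 change was 5.35 within the libraries numbered 1 and 4.89 within those numbered 2. With single libraries left out it was 4.40 without vector library 1, 5.83 without vector library 2, 5.61 without Sox9 library 1 and 4.63 without Sox9 library 2. The authors' deposited table gives an adjusted p of 0.00168 in exonic reads and of 0.00396 in intronic reads, where Prelp went from 4 reads over both vector libraries to 18 and 22 in the Sox9 libraries.

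Fmod, which binds collagen at a site shared with lumican and is rich in tendon and cartilage, stood at 2.56 and 6.27 RPM in vector and at 20.1 and 22.9 RPM in Sox9 cells. The log2 change was 2.36 ± 0.40 (limma adjusted p = 0.0672), with 2.82 within library 1 and 1.90 within library 2. Every Sox9 library lay above every vector library. The call depended on the setting: it passed at a lower minimum of 10 normalised counts (limma adjusted p = 0.0421) and in the authors' deposited table (adjusted p = 8.48e-07). With single libraries left out the change was 1.78 without vector library 1, 2.95 without vector library 2, 2.49 without Sox9 library 1 and 2.24 without Sox9 library 2. Its intronic reads numbered 12 over both vector libraries and 35 over both Sox9 libraries.

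Prelp and Fmod are direct neighbours on mouse chromosome 1, in the order Optc, Prelp, Fmod, and were the 2 members with the largest differences in Sox9 cells. Their 250 bases before the RefSeq start site (GRCm38.p6) are shown for that reason, for Prelp at chr1:133921402-133921651 (minus strand) and for Fmod at chr1:134037004-134037253 (plus strand). Capitals mark the same cores as above.
Prelp: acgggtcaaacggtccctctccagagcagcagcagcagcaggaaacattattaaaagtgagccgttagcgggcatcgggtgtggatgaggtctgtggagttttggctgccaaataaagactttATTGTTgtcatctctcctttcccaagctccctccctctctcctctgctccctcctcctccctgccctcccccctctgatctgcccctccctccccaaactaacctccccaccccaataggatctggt
Fmod: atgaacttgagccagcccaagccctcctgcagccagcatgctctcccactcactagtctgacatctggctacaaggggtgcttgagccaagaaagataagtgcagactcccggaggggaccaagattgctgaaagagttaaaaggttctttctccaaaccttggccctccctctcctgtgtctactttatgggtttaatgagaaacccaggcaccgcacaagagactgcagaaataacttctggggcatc

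The AACAAT core is read as ATTGTT in the Prelp window, starting 127 bases before the start site, and neither core is in the Fmod window. The Prelp window holds 55.6% G and C and the Fmod window 51.2%.

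Aspn stood at 3.96 and 13.5 RPM in vector and at 15.3 and 41.3 RPM in Sox9 cells, a log2 change of 1.74 ± 0.62 (limma adjusted p = 0.319). The change was 1.83 within library 1 and 1.65 within library 2, and the lowest Sox9 library lay just above the highest vector library. With any single library left out the change ranged from 0.91 to 2.57. Its intronic reads went from 44 to 121 over both libraries, with no overlap.

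Ogn stood at 139 and 421 RPM in vector and at 281 and 809 RPM in Sox9 cells, with a log2 change of 0.96 ± 0.59 (limma adjusted p = 0.524). The groups overlapped, while the difference was 0.92 within library 1 and 0.99 within library 2. With any single library left out the change of Ogn ranged from 0.17 to 1.75. Omd went from 15.03 and 78.8 RPM to 26.3 and 117 RPM, a change of 0.67 ± 0.85 (limma adjusted p = 0.767). This change turned to -0.48 without vector library 1 and to -0.44 without Sox9 library 2, and was 1.82 without vector library 2. Bgn went from 544 and 708 RPM to 732 and 768 RPM (0.25 ± 0.19, limma adjusted p = 0.612). Islr went the other way, from 13.8 and 74.1 RPM to 5.87 and 35.5 RPM (-1.15 ± 0.93, limma adjusted p = 0.634). Its change was -2.32 without vector library 1 and -2.47 without Sox9 library 2, and turned to 0.02 without vector library 2 and to 0.16 without Sox9 library 1.

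In intronic reads of Sox9 cells, 0 of the 3 tested members passed limma and 0 had an unadjusted p under 0.05. Of 8361 genes tested, 1.99% passed limma and 1438 had an unadjusted p under 0.05. The authors' test passed 1 of 9 members there, Prelp. With no minimum limma passed intronic Prelp too, at 3.11 ± 0.53 (limma adjusted p = 0.014).

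The chondrocyte markers Hapln1, Acan (aggrecan) and Sox6 rose in the same cells, by 9.56 ± 0.32, 8.48 ± 0.52 and 4.87 ± 0.34. These 3 of the list's 7 reached the minimum, and did so through their Sox9 libraries alone, so that they had to differ, and their count supports nothing about the list. The summed level of the 7 was 5.24 and 12.2 RPM in the vector libraries and 293 and 452 RPM in the Sox9 libraries. Of 11 collagens, 3 rose and 0 fell, namely Col11a1 by 5.72 ± 0.33, Col2a1 by 4.76 ± 0.21 and Col5a1 by 1.09 ± 0.17. Over all genes tested in exonic reads, 0.454% rose. In exonic reads 0 of 15 chondroitin and dermatan sulfate enzymes and 0 of 3 keratan sulfate enzymes passed limma, with medians of 0.33 and -0.04. In intronic reads 3 of 14 of the chondroitin and dermatan sulfate enzymes rose and 0 fell (limma), namely the chain polymerase Chsy3 by 3.14 ± 0.20, Xylt1 by 1.55 ± 0.15 and Csgalnact1, which starts chondroitin on the linker, by 1.49 ± 0.16. Over all genes tested in intronic reads, 1.99% passed limma. Intronic Col11a1, Col2a1 and Col3a1 rose by 5.60 ± 0.23, 4.36 ± 0.20 and 2.23 ± 0.43, Hapln1, Sox6 and Sox5 by 6.92 ± 0.35, 4.47 ± 0.28 and 2.28 ± 0.20, and Ctgf fell by 2.30 ± 0.35. Hapln1 reached the minimum in intronic reads too through its Sox9 libraries alone and so had to differ. The part of the chondrocyte markers in the rise of Prelp was not tested.

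Prelp was also compared between the factors themselves, in a single limma fit over the 8 transfected libraries that was added after the data were seen. It was higher in Sox9 than in Pbx3 cells by 4.30 ± 0.71 (limma adjusted p = 0.0426) and higher than in Tead4 cells by 3.76 ± 0.71 (limma adjusted p = 0.0337). In these fits 0.941% and 3.56% of 9778 genes passed. Prelp reached the minimum there through its Sox9 libraries alone and so had to differ. Its values between the factors therefore describe Prelp only and add nothing to its call against vector. Fmod in Sox9 cells was above Pbx3 cells by 1.79 ± 0.65 and above Tead4 cells by 2.79 ± 0.65, and neither passed (limma adjusted p = 0.226 and 0.0631). Bgn in Sox9 cells was above Tead4 cells by 0.75 ± 0.17 (limma adjusted p = 0.0572).

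No member passed the test in Pbx3 cells. Of 6 members tested in exonic reads, 0 passed limma and 0 had an unadjusted p under 0.05. The authors' test passed 0 of 9. Of 9826 genes tested, 0.0102% (1 gene) passed limma and 233 had an unadjusted p under 0.05. In intronic reads 0 of 3 members passed and 0 of 8557 genes did (0%), with 248 genes at an unadjusted p under 0.05 and 15 called by the authors' test. Bgn stood at 732 and 836 RPM against 544 and 708 RPM in vector, the 1 of 6 members whose groups did not overlap, beside 24.7% of all genes tested. Its log2 change was 0.34 ± 0.18 in exonic and 0.35 ± 0.18 in intronic reads.

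The other tested members of Pbx3 cells overlapped with the vector libraries. Fmod reached the minimum through its Pbx3 libraries alone in exonic reads, and Omd through its vector libraries alone in intronic reads. Islr stood at 7.66 and 26.0 RPM (log2 change -1.16 ± 0.89), Omd at 10.2 and 44.4 RPM (-0.68 ± 0.94) and Ogn at 109 and 355 RPM (-0.30 ± 0.69). Fmod stood at 3.69 and 9.71 RPM (0.57 ± 0.62) and Aspn at 4.52 and 19.7 RPM (0.37 ± 0.83). The standard error exceeded the change for all of these but Islr, whose change was -0.83 within library 1 and -1.50 within library 2. Prelp had 33 reads against 21 in vector, a ratio of RPM of 1.52 (95% interval 0.856 to 2.77, counting error only).

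In Tead4 cells, Islr was lower in both libraries than in either vector library, and no member passed the test. Islr stood at 2.67 and 5.65 RPM against 13.8 and 74.1 RPM in vector, a log2 change of -3.02 ± 0.78 (limma adjusted p = 0.179). The change was -2.35 within library 1 and -3.68 within library 2. It was -4.19 without vector library 1 and -1.84 without vector library 2. Of 5 members tested in exonic reads, 0 passed limma and 2 had an unadjusted p under 0.05. Of 9796 genes tested, 0.143% passed limma and 1554 had an unadjusted p under 0.05. The authors' test passed 0 of 9 members in exonic reads. In intronic reads 0 of 3 passed limma and 0 had an unadjusted p under 0.05. Of 8582 genes tested there, 1.61% passed limma and 1327 had an unadjusted p under 0.05.

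Bgn was the other member of Tead4 cells without overlap, at 393 and 508 RPM against 544 and 708 RPM in vector, and 2 of 5 members stood so beside 49.2% of all genes tested. Islr and Aspn reached the minimum through their vector libraries alone and so had to differ, and the counts in Tead4 cells describe the members only. The log2 change of Bgn was -0.49 ± 0.18 (limma adjusted p = 0.287), and it ranged from -0.66 to -0.32 with any single library left out. Aspn stood at 1.84 and 5.88 RPM (-1.14 ± 0.74), Ogn at 127 and 358 RPM (-0.20 ± 0.63) and Omd at 18.6 and 55.5 RPM (-0.11 ± 0.83), all overlapping with vector. Without vector library 1 these changes were -1.98, -0.96 and -1.27, and without vector library 2 those of Ogn and Omd turned, to 0.57 and 1.04. Prelp, under the minimum, had 54 reads in Tead4 and 21 in vector cells, a ratio of RPM of 2.58 (95% interval 1.53 to 4.49, counting error only). Fmod, also under it, had 65 against 91 reads, a ratio of 0.716 (95% interval 0.513 to 0.995, counting error only). Both overlapped with vector. Among the other lists in exonic reads of Tead4 cells, 1 gene passed limma, the fatty acid carrier Fabp4, which fell by 1.42 ± 0.13. In intronic reads, 1 of 14 chondroitin and dermatan sulfate enzymes rose, Csgalnact1 by 1.05 ± 0.18, and 2 fell, Chsy3 by 1.71 ± 0.31 and Xylt1, which fell by 1.21 ± 0.17. Over all genes tested in intronic reads of Tead4 cells, 1.61% passed limma. Intronic Col11a1 rose by 1.64 ± 0.22. The osteoblast markers Pth1r, Alpl and Sp7 fell in intronic reads, with log2 changes of -4.09 ± 0.48, -3.17 ± 0.52 and -2.17 ± 0.36. Pth1r, Sp7 and Chsy3 reached the minimum there through their vector libraries alone. Intronic Fabp4, Pparg and Ctgf fell as well, with changes of -1.29 ± 0.24, -1.06 ± 0.19 and -1.17 ± 0.21. The changes under Pbx3, Sox9 and Tead4 share the same 2 vector libraries and are not independent of each other.

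Most members differed between the 2 libraries of a group in the same direction in every group. Fmod, Prelp, Ogn, Omd, Aspn and Islr were higher in library 2 in 6 of 6 groups, with median log2 differences of 1.24, 0.92, 1.49, 2.06, 1.53 and 2.20. The widest range was that of Islr, from 1.02 in Tead4 to 3.07 in Dicer KO cells. Bgn was higher in library 2 in 5 of 6 groups, and its differences stayed between -0.41 and 0.45. Of all genes, 46.0% to 47.9% were higher in library 2 and 0.728% to 3.50% were so by more than 1 on the log2 scale. The libraries were numbered without the members, on genes whose difference between libraries correlated between groups with r from 0.350 to 0.824 over 15 pairs of groups. What the 2 libraries of a group differ in is not given in the sources used here.

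**Figure D4:**
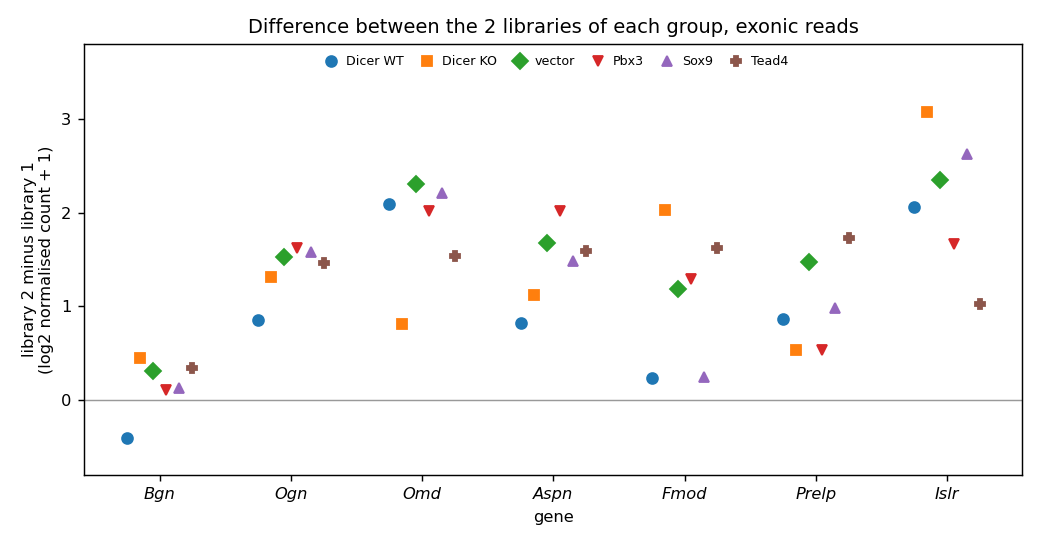
Difference between library 2 and library 1 (vertical axis, log2 of normalised count + 1) of 7 members (horizontal axis), with 1 symbol for each of the 6 groups. All symbols of Ogn, Omd, Aspn, Fmod, Prelp and Islr lie above 0, and those of Bgn lie between -0.41 and 0.45.

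Ordered by mean RPM over the 6 groups, the members did not share 1 ranking. Dicer KO was lowest for Bgn, Fmod, Prelp, Omd, Aspn and Islr, and Sox9 was highest for Fmod, Prelp, Omd and Aspn. Islr and Ogn were highest in Dicer WT, and Bgn in Pbx3. For Ogn the libraries of all 5 neighbouring pairs of groups in that order overlapped, from Dicer WT through Sox9, Dicer KO, vector and Tead4 to Pbx3. For Fmod 4 of 5 neighbouring pairs overlapped, and Sox9 stood apart from Pbx3, the next group. For Omd and Aspn 4 of 5 overlapped, and Dicer KO stood apart from the group above it, Pbx3 and Tead4 respectively. For Prelp, Sox9 stood apart from Tead4 and Dicer WT from Dicer KO. For Islr, Pbx3 stood apart from Tead4 and Tead4 from Dicer KO. For Bgn, Sox9 stood apart from vector, vector from Dicer WT and Tead4 from Dicer KO.

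Across the 12 exonic libraries, which share 2 controls, their groups and the difference between libraries, the members followed each other unequally. Pearson r of log2(RPM + 1) was 0.90 for Omd and Aspn, 0.87 for Bgn and Aspn and 0.86 for Fmod and Prelp. It was 0.37 for Omd and its neighbour Ogn, and 0.08 for Bgn and Ogn, the 2 most abundant members. Among 10748 other genes, the closest to Aspn were Sspn (r = 0.97) and Mme (r = 0.96), to Omd Itpkb (0.96) and Mrgprf (0.95), and to Islr Leprel2 (0.97) and Il1rn (0.96). The closest to Fmod were Sox5 and Sox6 (both r = 0.92), to Ogn Col6a1 and Ppp1r3c (both 0.95), and to Bgn Gm9766 (0.94) and Setbp1 (0.93). These values describe 12 libraries of 6 groups and carry no test.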

How the data were processed

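The submitters' processing notes name Bowtie2, the build mm9 and, for the comparison of the 6 groups by the authors, DESeq (version 1.10.1). Which annotation was used and how reads were assigned to exons and introns is not given in the sources used here. The deposited signal columns hold group means of counts divided by size factors, per the file headers. The deposited fold change is the ratio of those means, the deposited log2 column its logarithm, and the deposited p-value columns come from the authors' test.

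The labels list 1 sample per group, yet each mean resolved into whole reads of 2 libraries, with 1 solution for 100% of genes at a tolerance of 1e-09; on simulated data 5000 of 5000 genes were returned. No deposited column was left without a group (0 columns). The recovered values were tested on the scale of log2(normalised count + 1) by limma (version 3.58.1, R 4.3.3) with its variance trend, for genes with a mean of at least 50 over both groups. The difference between exonic and intronic changes was tested by limma without the trend. P-values were adjusted by Benjamini-Hochberg over all genes of a table, with a threshold of 0.05. On simulated data, with 192 to 198 genes changed by 1 on the log2 scale in each table, limma recovered 155 to 173 and made 4 to 14 false calls. The simulated counts had the same dispersion for every gene and no shared difference between libraries. These numbers therefore check the code and do not give the share of changes found in the real libraries. Exon lengths come from the reference annotation and promoter windows from RefSeq (GRCm38.p6).

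The named genes were all 9 members, up to 3 passing genes of each list, the 2 genes most like each member and the 4 targeted genes. The members, the lists and the rule for named genes were chosen with earlier results of these data known. Alternatives covered the pseudocount, the minimum, the scaling, the trend, the order of libraries and each library left out, and 2 fits over 8 libraries were added after seeing the data.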

Additional observations from a re-analysis of the deposited data

How the results depend on the processing

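Of 546 alternative values of single members, 457 kept their direction and their side of the threshold, 55 newly passed, 2 no longer passed and 32 changed sign. The 2 lost calls were Omd and Islr in Dicer KO under the authors' deposited test, at log2 changes of -5.34 (adjusted p = 0.128) and -6.49 (adjusted p = 0.058). The pseudocount, the scaling and the trend changed no member's call. Dcn and Lum, and the intronic reads of 6 members, fell below the chosen minimum of 50. With no minimum, 3 of these values passed, namely exonic Dcn and intronic Aspn in Dicer KO and intronic Prelp in Sox9. An edgeR fit on the recovered reads, which those reads would have allowed, was planned and not run, and limma on the recovered values was used. With 1 library left out, the lone library is assumed to vary like the other group, so that for single members only the size of the change is given above.

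In exonic reads the counts of genes called were 1782 in Dicer KO, 1 in Pbx3, 53 in Sox9 and 14 in Tead4. A minimum of 10 gave 105 in Sox9 and 23 in Tead4, a minimum of 200 gave 23 and 9, and no minimum gave 165 and 91. Without the trend Tead4 gave 8. The authors' test called 13 in Pbx3, 109 in Sox9 and 205 in Tead4. In intronic reads the counts were 665, 0, 166 and 138. A minimum of 200 gave 377 in Dicer KO and 50 in Tead4, a minimum of 10 gave 210 in Tead4, and no minimum gave 6 in Pbx3, 262 in Sox9 and 315 in Tead4. Total read scaling gave 54 and no trend 88 in Tead4, and the authors' test 15 in Pbx3. The exonic minus intronic test called 494 genes at a minimum of 200 against 314. The cause of these differences was not tested.

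With library order as a replicate block, which comes from the data and from no label, the counts were 5052, 596, 1790 and 857 in exonic and 3112, 623, 1558 and 1389 in intronic reads, for Dicer KO, Pbx3, Sox9 and Tead4. A single fit over the 8 transfected libraries gave 3 in Pbx3 and 87 in Tead4 in exonic reads and 10 in Pbx3 in intronic reads. With the block it gave 70, 1245 and 1095 in exonic and 85, 1178 and 871 in intronic reads for Pbx3, Sox9 and Tead4. The libraries were numbered along the axis that the block removes, and each of the 4 comparisons has 2 libraries a group. Adjusted p values with the block therefore describe this setting only and add nothing to the calls without it. The block brought 22 member values past the threshold in the 4 comparisons and 10 in the single fit. In exonic reads of Sox9 cells these were Fmod (limma adjusted p = 9.71e-14), Aspn (3.92e-11), Ogn (2.79e-08), Islr (2.28e-07) and Omd (0.000415), and all 5 passed with the block in the single fit too (0.0017, 0.0011, 0.000316, 0.0407 and 0.0357). The others were exonic Bgn and Ogn in Dicer KO, Bgn, Ogn, Omd and Islr in Pbx3, and Bgn, Aspn and Islr in Tead4, and intronic Bgn, Ogn and Omd in Dicer KO and Pbx3, Ogn in Sox9 and Bgn in Tead4.

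Leaving out 1 library moved the exonic counts to 535 to 1908 in Dicer KO, 4 to 19 in Pbx3, 73 to 1271 in Sox9 and 5 to 2375 in Tead4, and the intronic counts to 162 to 955, 8 to 45, 114 to 389 and 49 to 900. In exonic reads the log2 change of Ogn in Dicer KO ranged from -1.27 to 0.038. In Pbx3 cells Fmod ranged from -0.072 to 1.22, Aspn from -0.64 to 1.38, Ogn from -1.11 to 0.51, Omd from -1.84 to 0.47 and Islr from -2.34 to 0.0088. In Sox9 cells Omd ranged from -0.48 to 1.82 and Islr from -2.47 to 0.16, and in Tead4 cells Ogn from -0.96 to 0.57 and Omd from -1.27 to 1.04. In intronic reads Ogn ranged from -1.35 to 0.39 in Pbx3. In Sox9 cells intronic Bgn ranged from -0.054 to 0.20, Ogn from -0.15 to 1.20 and Omd from -0.77 to 0.88. In Tead4 cells intronic Ogn ranged from -0.77 to 0.69 and Omd from -0.75 to 0.91. Intronic Omd changed sign in the authors' deposited tables, at -0.00286 in Sox9 and -0.0177 in Tead4, from 0.06 and 0.08.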
